A study of Danio rerio with 15 samples.

Results

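The genes described here are 51 components of the machinery of cell division, from the cyclin-dependent kinase Cdk1 and its cyclins to the kinetochore, the spindle and cytokinesis. They were set by a list of symbols, and 44 of the 51 had a row in a table of 14836 zebrafish genes. The 7 symbols with no row were espl1, incenp, cenpf, knl1, bub1, bub1bb and ncaph, which were not analysed here. The fins of wild-type zebrafish were amputated, and the tissue collected reached 1 bone segment proximal and 1 bone segment distal to the cut. Bulk RNA was sequenced from 5 groups, at 0, 4, 7, 14 and 21 days post amputation (dpa), with 3 libraries in each and a pool of 10 animals behind each library. The genotype label was WT in all 15 libraries, no other allele or agent was named, and strain, sex and age were not given in the sources used here. The second time point is 4 dpa in the sample labels and 3.5 dpa in the series design text, and it is called 4 dpa throughout. The 0 dpa libraries are the reference for the comparisons, and the later libraries were set against them and against the preceding time point.

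Mitosis is entered when Cdk1 bound to B-type cyclins phosphorylates its substrates, among them condensin, which packs the chromosomes, and lamins. Kinetochores assemble on centromeres and attach to the spindle, and the spindle checkpoint holds the anaphase promoting complex back until every chromosome is attached. Many of these genes are transcribed late in the cell cycle through the MuvB complex, B-Myb and FoxM1. In the zebrafish fin, a wound epidermis closes the stump and a blastema of dividing mesenchymal cells forms beneath it, and cell division in both tissues supplies the outgrowth.

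Levels are given as scaled TPM, the deposited TPM (a measure of transcript abundance per length) divided by a factor for each library. The factors ran from 0.575 in replicate 2 at 21 dpa to 1.48 in replicate 3 at 14 dpa. TPM keeps no read totals, so the depth behind each value is unknown. A gene typed as ribosomal RNA in RefSeq took from 2.26% of all TPM, in replicate 1 at 0 dpa, to 71.6%, in replicate 3 at 4 dpa, and it took 60.3% and 61.1% in replicates 1 and 2 at 7 dpa and 67.0% in replicate 2 at 21 dpa. Between 11797 genes (replicate 3 at 4 dpa) and 13282 genes were above 0 in a library. Replicate 2 at 21 dpa listed 9 of the 44 members at 0, cdk1 among them, and no other library listed more than 1.

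In the tissue collected around the cut, the division genes rose together at 4 dpa and were back near their starting level at 7 dpa. Tissue farther from the cut was not sampled, so the fall does not show what happened in the rest of the regenerating fin. Summed over the 44 members, the scaled TPM was 46.7, 43.4 and 35.7 in the 0 dpa libraries and 224, 263 and 191 in the 4 dpa libraries. The sum was 36.2, 46.3 and 50.2 at 7 dpa, 31.9, 32.7 and 36.5 at 14 dpa, and 36.3, 28.2 and 32.9 at 21 dpa. The lowest 4 dpa library therefore lay far above the highest library of any other time point, and the other 4 time points lay close together. In a bulk sample, fewer cells of a type and less RNA per cell cannot be told apart, and that holds for each value below.

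**Figure D1:**
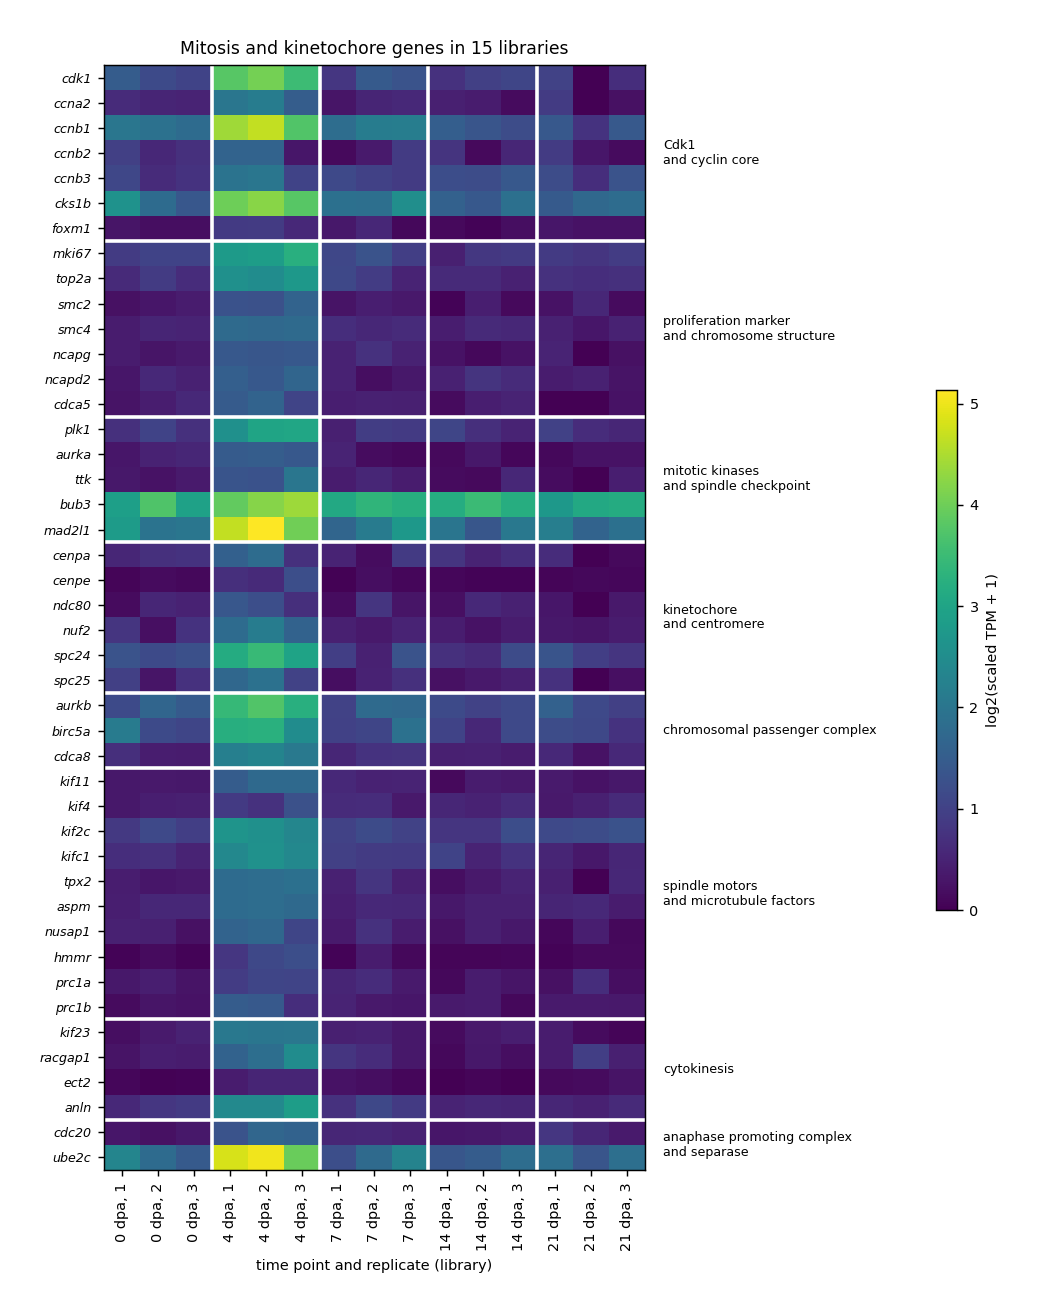
Level of the 44 genes (rows, grouped by role) in each of the 15 libraries (columns, 3 per time point), with colour giving log2(scaled TPM + 1). The 3 columns at 4 dpa are brighter than the other 12 in nearly every row, and bub3 is bright in all of them.

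All 44 members had their highest mean at 4 dpa. The mean at 4 dpa over that at 0 dpa had a median of 6.07-fold over the 44, from 2.03-fold for bub3 to 17.3-fold for hmmr. Every 4 dpa library lay above every one of the 12 other libraries for 40 of the 44 members, beside 4.38% of the 14395 genes above 0 in any library. The 4 exceptions were ccnb2, ccnb3, cenpa and ndc80. In a limma fit without a filter on low values, 42 of the 44 rose from 0 to 4 dpa at an adjusted p under 0.05, where 6.26% of those 14395 genes were called higher. The other two members, ccnb2 and cenpa, were above 0 dpa by 0.44 and 0.69 on the log2 scale with adjusted p-values of 0.478 and 0.111. Over all 5 time points 41 of the 44 passed limma's F test, beside 19.7% of those genes. The median log2 difference over the 44 was 1.28, beside -0.01 over all genes in that fit.

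A filter that asked for a TPM of 1 or more in 3 or more libraries left 31 of the 44 members among 10235 tested genes. Of these 31, 19 passed only with the help of the 4 dpa libraries. Most of the 19 reached a TPM of 1 in no library outside 4 dpa and so had to be higher there. For top2a, plk1, kifc1 and anln, which reached it in 1 or 2, the filter favoured a higher level without fixing it. All 31 were called higher at 4 than at 0 dpa, where 7.87% of the tested genes were, and that count is read no further for this reason. The 12 that also passed within the 12 libraries outside 4 dpa do not carry that condition. They were cdk1, ccnb1, ccnb3, cks1b, mki67, bub3, mad2l1, spc24, aurkb, birc5a, kif2c and ube2c, and all 12 were called higher at 4 dpa, beside 7.06% of the 9991 genes that passed the same filter. Their median log2 difference was 2.01, beside -0.04 over those 9991 genes. The 13 members under the filter were ccnb2, foxm1, cdca5, cenpa, cenpe, ndc80, spc25, kif4, nusap1, hmmr, prc1a, prc1b and ect2.

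The fall from 4 to 7 dpa covered nearly the same span. Of the 44 members, 38 fell at an adjusted p under 0.05 in the limma fit without a filter, where 2.01% of all genes in the fit were called lower. The 6 that did not pass were ccnb2, ccnb3, cenpa, ndc80, kif4 and prc1a, each with a log2 difference below 0. With the filter the count was 30 of 31, beside 2.5%. But 19 of the 31 passed only with the 4 dpa libraries, so that the filter fixed or favoured a high level there. That count is read no further for this reason. Among the 12 that passed outside 4 dpa the count was 11, beside 1.7%. The gene ccnb3 was missing both times. Of the rise between 0 and 4 dpa, a median of 2.97% over the 44 members was left at 7 dpa, from -35.5% for ccnb2 to 24.4% for ect2, where a negative share is a mean below that of 0 dpa.

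At later times no member differed from 0 dpa past the threshold. In the limma fit without a filter 0 of the 44 were called at 7, 14 or 21 dpa against 0 dpa, where 3.03%, 6.2% and 9.65% of all genes in the fit were called in either direction. At an unadjusted p under 0.05 the counts were 0, 2 and 5. The same fit called 0 members at 14 against 7 dpa and at 21 against 14 dpa, beside 2.26% and 1.28% of all genes, with 7 and 3 members at an unadjusted p under 0.05. The 95% intervals of the log2 differences over the 44 members ran from -0.99 to 0.78 at 7 dpa. They ran from -1.24 to 0.97 at 14 dpa and from -1.22 to 0.76 at 21 dpa. Only 9 of the 44 had a mean of at least 1 scaled TPM at 0 dpa. For the lower genes the value added before taking logs makes differences small, so a missing call does not show an unchanged level. At 7 dpa 30 of the 44 differences were above 0 and 14 below. The median was 0.095, beside -0.002 over all genes in the fit. All 3 libraries at 7 dpa lay above all 3 of 0 dpa for kifc1, cdc20, kif11, ncapg, smc4, ttk, tpx2, prc1b and ect2. The share of all genes separated in this way was not counted, so that list is read no further. Most members were below 0 dpa late, with 35 of 44 differences under 0 at 14 dpa and 33 of 44 at 21 dpa. The late medians were -0.07 and -0.12, beside 0 and 0.01 over all genes in the fit. The share of all genes with a difference on either side of 0 was not counted. The 21 dpa side includes replicate 2, which listed 9 of the 44 members at 0. The comparisons share the 0 dpa libraries, and the members are not independent of each other.

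**Figure D2:**
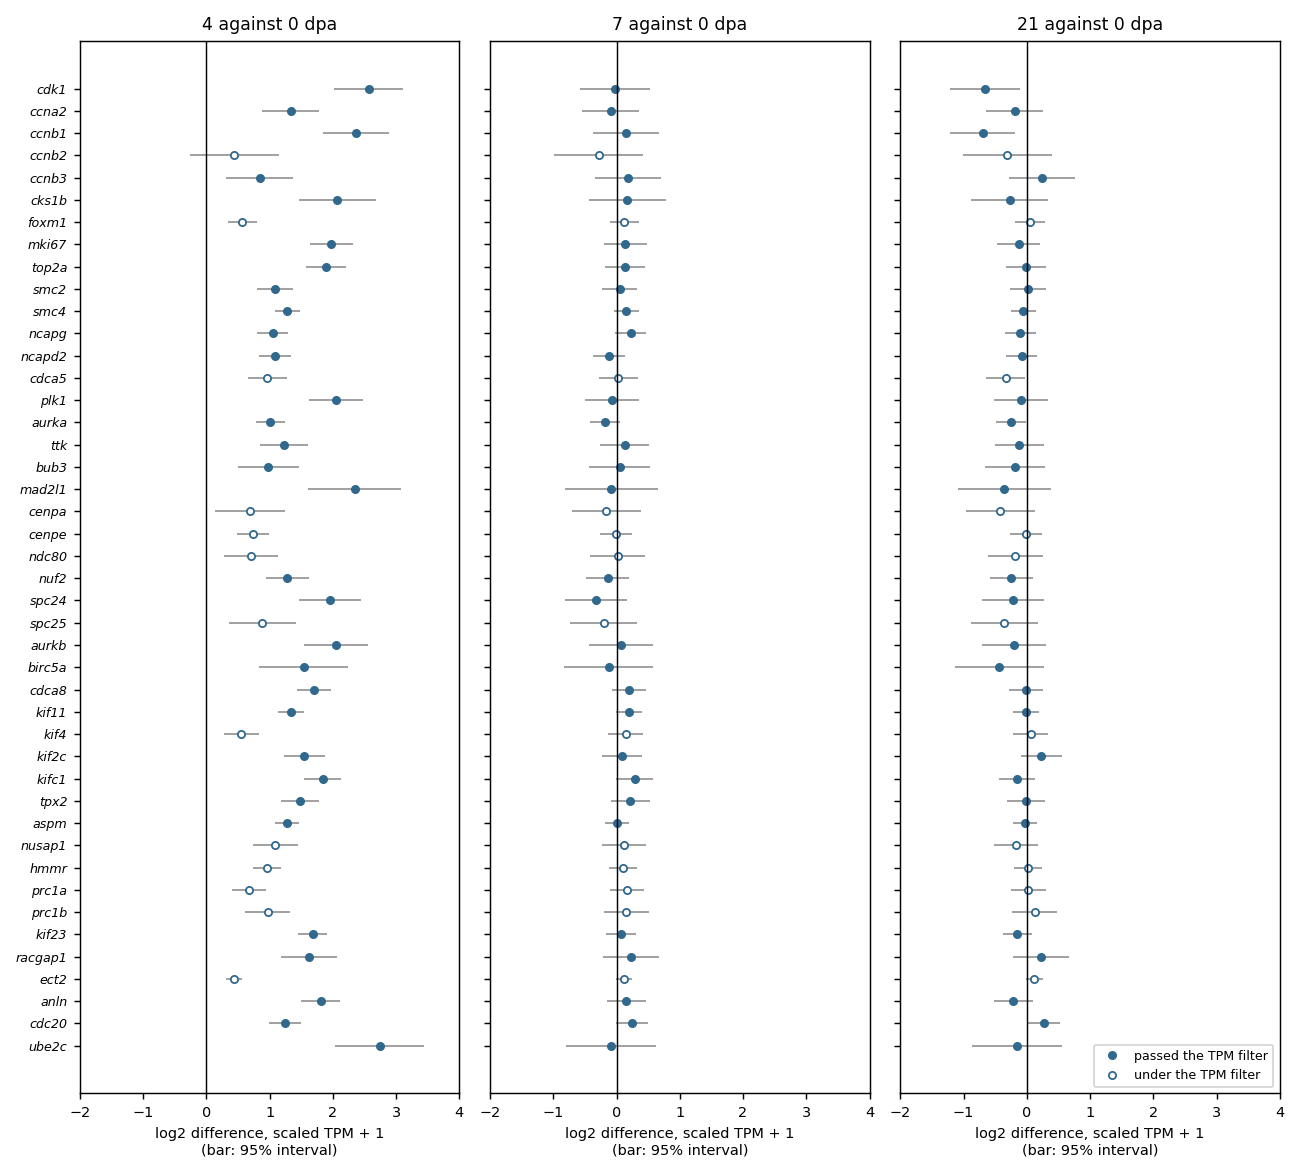
Log2 difference of scaled TPM + 1 from 0 dpa (x axis) for each of the 44 genes (rows) at 4, 7 and 21 dpa, from the limma fit without a filter. Points are estimates and bars 95% intervals, with open points for the 13 genes under the TPM filter. At 4 dpa all 44 points lie right of 0, and at 7 and 21 dpa the points lie on both sides of it.

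Markers of the cell types that the tissue can hold moved over the same interval. Of all tested genes 7.87% were called higher at 4 than at 0 dpa and 7.26% lower, and the marker counts stand beside these shares. Of 9 tested fibroblast and blastema markers 8 were called higher at 4 than at 0 dpa, but only 7 of the 9 passed the filter outside 4 dpa. Without a filter 8 of the 10 in the list were called higher, beside 6.26% of all genes in that fit. The summed level of that list rose from 67.1 to 86.3 scaled TPM over the 0 dpa libraries to 404 to 753 over the 4 dpa libraries. The endothelial list went from 11.1 to 17.1 to a range of 27.8 to 31.2, with 3 of 4 tested markers called higher. The epidermal list, led by keratins, was at 7111 to 8773 and then 4553 to 6057, with 2 of 8 called lower beside 7.26% of tested genes, and the lymphocyte list was at 14.2 to 17.1 and then 5.25 to 8.95, with 3 of 5 called lower. Macrophage and monocyte markers were at 9775 to 15208 and then 2467 to 5704, with 2 of 6 called lower, and osteoblast markers were at 2213 to 7661 and then 1442 to 2721, with 3 of 7 called higher. Of the neutrophil markers 1 of 4 tested was called higher and of the nerve sheath markers 2 of 3 lower, and no red blood cell or pigment cell marker was called. None of the markers was at 0 in all 15 libraries. At 7 dpa the fibroblast and blastema list was at 140 to 189, still above every 0 dpa library, while the division genes were not. The part of these cell types in the division genes' rise was not tested.

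Of the 7 members of the Cdk1 and cyclin core, 6 rose at 4 dpa and 5 fell at 7 dpa in the fit without a filter. The kinase gene cdk1 stood at 1.80, 1.23 and 1.05 scaled TPM at 0 dpa, 12.9, 15.7 and 10.4 at 4 dpa and 0.762, 1.75 and 1.49 at 7 dpa. It was at 0.651, 0.972 and 1.11 at 14 dpa, and at 1.03, listed at 0, and 0.588 at 21 dpa. Every 4 dpa library was thus several times any other. The log2 difference from 0 to 4 dpa was 2.56 (SE 0.25, limma adjusted p = 1.27e-05), and from 4 to 7 dpa it was -2.59 (SE 0.25, adjusted p = 3.13e-05).

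The main mitotic cyclin gene, ccnb1, went from 3.04, 2.77 and 2.46 scaled TPM to 20.1, 24.4 and 12.3 and back to 2.57, 3.46 and 3.50 at 7 dpa. At 14 dpa it was at 1.90, 1.57 and 1.28 and at 21 dpa at 1.68, 0.692 and 1.71, so that all 6 late libraries lay below all 3 of 0 dpa. Its log2 difference at 21 dpa was -0.70 (SE 0.23) with a limma adjusted p of 0.0625, the smallest of any tested member at that time, and cdk1 followed with -0.66 (SE 0.25, adjusted p = 0.0938). At that time 13.6% of tested genes were called in either direction and none of the tested members, and the call turned on single libraries. Without replicate 3 at 4 dpa, ccnb1 had an adjusted p of 0.0260, and without replicate 1 at 21 dpa, cdk1 had 0.0388.

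The smallest tested rise in the core was that of ccnb3, a B-type cyclin that in mouse is known from oocyte meiosis. It was at 1.13, 0.550 and 0.683 scaled TPM at 0 dpa, 2.89, 3.02 and 1.04 at 4 dpa, and 1.19, 0.996 and 0.860 at 7 dpa. At 14 dpa it was at 1.33, 1.27 and 1.68 and at 21 dpa at 1.29, 0.597 and 1.48. Replicate 3 at 4 dpa fell among the libraries of the other times, and the groups overlapped. The log2 difference from 0 to 4 dpa was 0.84 (SE 0.24, limma adjusted p = 0.0297), the change over all 5 time points had an adjusted p of 0.0958 in limma's F test, which 26.7% of tested genes passed, and no other tested member failed it. In the filtered fit the 4 dpa call was lost without replicate 2 or 3 at 0 dpa (adjusted p of 0.0908 and 0.0901) and without replicate 1 or 2 at 4 dpa (0.128 and 0.126). The limma fit without a filter gave the rise an adjusted p of 0.0393. That call was lost in the same 4 cases. It was also lost without any one of the 14 dpa libraries, replicate 1 at 21 dpa, or replicate 1 or 2 at 7 dpa. The fall to 7 dpa had an adjusted p of 0.179 in the filtered fit, and of 0.0150 without replicate 3 at 4 dpa.

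Its paralog ccnb2 was at 0.963, 0.485 and 0.642 scaled TPM at 0 dpa and at 2.09, 2.11 and 0.245 at 4 dpa, so that the 4 dpa replicates lay on either side of the 0 dpa range. Within the core, cks1b, which encodes a small Cdk-binding subunit, rose 4.92-fold in its means and ccna2, the cyclin A gene, 5.81-fold. The transcription factor gene foxm1, whose product activates many of the others in mammals, stayed under 1 scaled TPM in every library. It was at 0.229, 0.135 and 0.134 at 0 dpa and 0.830, 0.866 and 0.509 at 4 dpa, and its log2 difference was 0.57 (SE 0.11, adjusted p = 0.00344 in the limma fit without a filter).

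**Figure D3:**
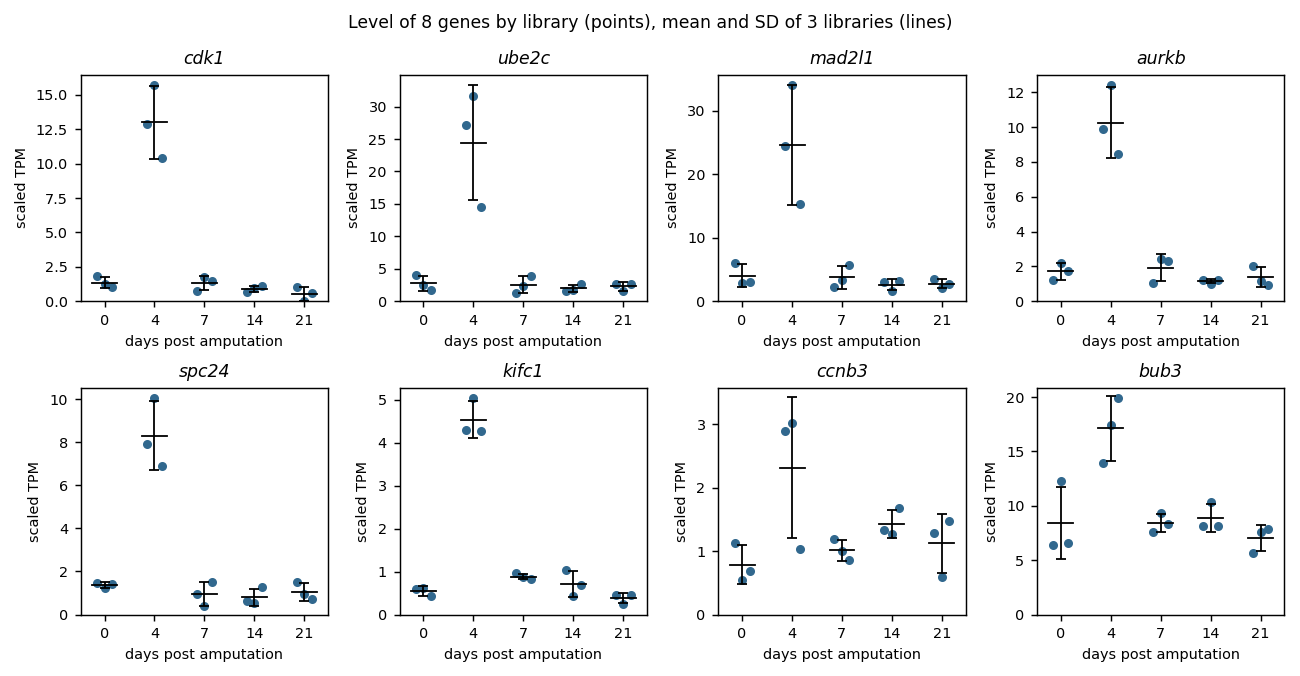
Scaled TPM (y axis, linear from 0) of 8 genes against days post amputation, with a point for each library and lines for the mean and SD of 3 libraries. For cdk1, ube2c, mad2l1, aurkb, spc24, kifc1 and bub3 all 3 points at 4 dpa lie above all 12 others, and for ccnb3 the lowest 4 dpa point lies among them.

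Of the proliferation marker and the genes of chromosome structure, all 7 with a row rose at 4 dpa and all 7 fell at 7 dpa in the fit without a filter. The proliferation marker gene mki67, whose product coats mitotic chromosomes, was at 0.853, 1.04 and 1.06 scaled TPM at 0 dpa, 5.93, 6.23 and 8.44 at 4 dpa and 1.15, 1.49 and 0.942 at 7 dpa. It was at 0.376, 0.791 and 0.837 at 14 dpa and at 0.824, 0.731 and 0.883 at 21 dpa. Its rise of 1.98 on the log2 scale had an SE of 0.16 and a limma adjusted p of 3.70e-06. The gene of topoisomerase II alpha, top2a, which untangles sister chromatids, followed it closely, with 0.528, 0.865 and 0.566 at 0 dpa and 5.00, 4.66 and 5.69 at 4 dpa.

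Condensin I, the complex that compacts mitotic chromosomes, had 4 genes in the table, smc2, smc4, ncapg and ncapd2, and their means at 4 dpa were 5.10 to 6.91 times those at 0 dpa. The smallest tested log2 difference of the group was that of ncapg, with 0.315, 0.218 and 0.294 scaled TPM at 0 dpa, 1.67, 1.58 and 1.68 at 4 dpa and 0.405, 0.659 and 0.409 at 7 dpa. The difference at 4 dpa was 1.05 (SE 0.11, adjusted p = 5.79e-05 in the limma fit without a filter). The value added before taking logs limits what such a gene can show, since in means the same gene was 5.95-fold higher. The gene cdca5, which encodes sororin, a protector of sister chromatid cohesion, went from 0.203, 0.334 and 0.497 to 1.76, 2.10 and 1.08.

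Among mitotic kinases and spindle checkpoint genes, all 5 with a row, plk1, aurka, ttk, bub3 and mad2l1, rose at 4 dpa and fell at 7 dpa in the fit without a filter. The checkpoint gene mad2l1, whose product inhibits Cdc20, was at 6.07, 2.87 and 3.07 scaled TPM at 0 dpa, 24.5, 34.1 and 15.3 at 4 dpa and 2.19, 3.41 and 5.66 at 7 dpa. Its rise was 2.34 on the log2 scale (SE 0.33, limma adjusted p = 2.81e-04) and the groups did not overlap. Polo-like kinase 1, plk1, rose from 0.644, 1.05 and 0.639 to 4.95, 7.04 and 7.16. The aurora A gene aurka, active at centrosomes, was at 0.232, 0.409 and 0.474 at 0 dpa and 1.77, 1.87 and 1.65 at 4 dpa, and ttk, the checkpoint kinase Mps1, was at 0.264, 0.191 and 0.286 and then 1.54, 1.45 and 3.03.

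The checkpoint gene bub3 stood apart by its level outside 4 dpa. It was at 6.44, 12.2 and 6.61 scaled TPM at 0 dpa, 14.0, 17.4 and 19.9 at 4 dpa, 7.59, 9.31 and 8.36 at 7 dpa, 8.10, 10.3 and 8.13 at 14 dpa and 5.66, 7.59 and 7.88 at 21 dpa. Its lowest 4 dpa library was above its highest other library. It had the highest mean of the 44 members at each of the other 4 time points and the smallest fold at 4 dpa, with a log2 difference of 0.98 (SE 0.22, limma adjusted p = 0.00854). The fall to 7 dpa, -0.93 (SE 0.22, limma adjusted p = 0.0337), lost its call when any of the 6 libraries of 4 and 7 dpa was left out, with adjusted p-values of 0.0542, 0.118 and 0.0885 without 4 dpa replicates 1, 2 and 3 and of 0.135, 0.0748 and 0.0656 without 7 dpa replicates 1, 2 and 3.

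Of the 6 kinetochore and centromere genes with a row, 5 rose at 4 dpa and 4 fell at 7 dpa in the fit without a filter. The Ndc80 complex, which grips the spindle microtubule, has its 4 subunits among them. Its subunit gene spc24 was at 1.48, 1.23 and 1.4 scaled TPM at 0 dpa, 7.95, 10.0 and 6.92 at 4 dpa and 0.938, 0.389 and 1.50 at 7 dpa, and it was at 0.638, 0.529 and 1.27 at 14 dpa and at 1.51, 0.932 and 0.720 at 21 dpa. The rise was 1.96 on the log2 scale (SE 0.22, limma adjusted p = 5.25e-05). Its subunit gene nuf2 was at 0.732, 0.152 and 0.679, then 2.48, 3.48 and 2.07, then 0.375, 0.275 and 0.428. The rise of nuf2 was 1.28 (SE 0.16, adjusted p = 1.63e-04 in the limma fit without a filter).

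The remaining subunits ndc80 and spc25 were under the filter and spread widely at 4 dpa. The first was at 0.115, 0.475 and 0.405 scaled TPM at 0 dpa and 1.64, 1.35 and 0.616 at 4 dpa, and the second at 0.964, 0.226 and 0.672 and then 2.26, 2.80 and 1.03. Their rises of 0.71 (SE 0.20) and 0.88 (SE 0.25) passed with limma adjusted p-values of 0.0362 and 0.0338, and both calls were lost when replicate 3 at 0 dpa or replicate 1 or 2 at 4 dpa was left out. The call of ndc80 was also lost without replicate 1 at 0 dpa, replicate 3 at 14 dpa or replicate 1 at 21 dpa, and that of spc25 without replicate 2 at 0 dpa. The centromeric histone gene cenpa, with 0.472, 0.647 and 0.688 at 0 dpa and 1.97, 2.54 and 0.629 at 4 dpa, did not pass. The motor gene cenpe, which carries chromosomes to the spindle equator, was the lowest of the group outside 4 dpa and rose from 0.0520, 0.105 and 0.0785 to 0.606, 0.530 and 1.34, a 10.5-fold difference in means.

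All 3 genes with a row of the chromosomal passenger complex rose at 4 dpa and fell at 7 dpa in the fit without a filter. That complex corrects faulty attachments and later acts at the cleavage plane. Its kinase gene aurkb was at 1.23, 2.20 and 1.74 scaled TPM at 0 dpa, 9.87, 12.4 and 8.45 at 4 dpa and 1.02, 2.41 and 2.33 at 7 dpa. It was at 1.21, 1.01 and 1.21 at 14 dpa and at 2.04, 1.18 and 0.960 at 21 dpa. The rise was 2.05 on the log2 scale (SE 0.23, limma adjusted p = 4.23e-05), and the groups did not overlap.

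The survivin gene birc5a had the smallest rise of the complex and the widest spread at 0 dpa, with 3.40, 1.22 and 1.11 scaled TPM there, 8.36, 8.55 and 4.61 at 4 dpa and 1.00, 1.09 and 2.79 at 7 dpa. Its rise was 1.54 (SE 0.32, limma adjusted p = 0.00432) and its fall -1.66 (SE 0.32, adjusted p = 0.00834). In the filtered fit the fall missed the threshold without replicate 1 at 4 dpa (limma adjusted p = 0.0513) and without replicate 1 at 7 dpa (0.0510). In the fit without a filter it missed it without replicate 1 or 2 at 4 dpa and without replicate 1 or 2 at 7 dpa. The borealin gene cdca8 was tighter, with 0.607, 0.336 and 0.313 at 0 dpa and 3.66, 3.95 and 3.24 at 4 dpa, an 8.64-fold difference in means.

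All 10 spindle motors and microtubule factors rose at 4 dpa and 8 fell at 7 dpa in the fit without a filter. The minus-end motor gene kifc1, whose product focuses spindle poles, was at 0.584, 0.629 and 0.428 scaled TPM at 0 dpa, 4.30, 5.03 and 4.28 at 4 dpa and 0.956, 0.863 and 0.833 at 7 dpa. All 3 of its 7 dpa libraries lay above all 3 of 0 dpa, but the log2 difference of 0.29 (SE 0.15) had a limma adjusted p of 0.285, the smallest of any tested member at 7 against 0 dpa. Its rise at 4 dpa was 1.84 (SE 0.13, adjusted p = 3.33e-06 in the limma fit without a filter). The spindle pole gene aspm had the smallest tested log2 difference of the group and tight replicates. It was at 0.347, 0.479 and 0.486 at 0 dpa, 2.47, 2.55 and 2.39 at 4 dpa and 0.340, 0.507 and 0.483 at 7 dpa. Its rise was 1.27 (SE 0.09, adjusted p = 2.96e-06 in the limma fit without a filter).

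Among the other spindle genes, kif11, the plus-end motor that pushes the poles apart, was at 0.251, 0.275 and 0.253 scaled TPM at 0 dpa and 1.82, 2.37 and 2.39 at 4 dpa. The microtubule depolymerase gene kif2c went from 0.802, 1.20 and 0.922 to 5.28, 4.94 and 4.13, and tpx2, which activates aurora A, from 0.329, 0.239 and 0.267 to 2.47, 2.54 and 2.70. The gene hmmr, which encodes a spindle-associated hyaluronan receptor, had the largest fold of the 44 from a level near 0. It was at 0.0390, 0.115 and 0.0343 at 0 dpa and 0.745, 1.15 and 1.35 at 4 dpa, and a fold from so low a level is imprecise.

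The motor gene kif4, which acts on chromosome arms and the midzone, had the smallest rise of the group, from 0.256, 0.356 and 0.369 scaled TPM to 0.828, 0.669 and 1.42, and its call was lost without replicate 1 at 0 dpa. Both paralogs of the midzone bundler PRC1 were present, and reads that they share could have been split between them by the authors' quantification. At 0 dpa prc1a was at 0.262, 0.342 and 0.204 and prc1b at 0.112, 0.230 and 0.196. At 4 dpa prc1a was at 0.871, 1.11 and 1.09 and prc1b at 1.82, 1.72 and 0.597, so that prc1b was the higher of the pair in replicates 1 and 2 and the lower in replicate 3.

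All 4 cytokinesis genes rose at 4 dpa and fell at 7 dpa in the fit without a filter, with folds in means of 7.16 to 11.0. The contractile ring scaffold gene anln was at 0.504, 0.767 and 0.822 scaled TPM at 0 dpa, 4.36, 4.33 and 6.29 at 4 dpa and 0.671, 1.16 and 0.842 at 7 dpa. Its rise was 1.81 on the log2 scale (SE 0.14, adjusted p = 5.80e-06 in the limma fit without a filter). The centralspindlin genes kif23 and racgap1 differed in spread. The first was at 0.145, 0.294 and 0.402 at 0 dpa and 3.13, 3.05 and 3.10 at 4 dpa, while racgap1 was at 0.210, 0.354 and 0.317 and then 2.07, 2.60 and 4.65. Its log2 difference of 1.62 (SE 0.21, adjusted p = 2.10e-04 in the limma fit without a filter) was the smallest tested one of the group. In means racgap1 was 10.6-fold higher. The RhoA activator gene ect2 was the lowest member at 0 dpa, with 0.0636, 0.0250 and 0.0373, and was at 0.318, 0.446 and 0.452 at 4 dpa.

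The 2 genes of the anaphase promoting complex machinery with a row rose at 4 dpa and fell at 7 dpa in the fit without a filter. The gene ube2c, which encodes the ubiquitin-conjugating enzyme of that complex, had the largest log2 difference of the 44. It was at 4.03, 2.46 and 1.75 scaled TPM at 0 dpa, 27.2, 31.7 and 14.5 at 4 dpa and 1.35, 2.42 and 3.93 at 7 dpa, and it was at 1.59, 1.81 and 2.59 at 14 dpa and at 2.67, 1.55 and 2.69 at 21 dpa. The rise was 2.74 (SE 0.32, limma adjusted p = 5.78e-05) and the fall -2.83 (SE 0.32, limma adjusted p = 1.21e-04). The activator gene cdc20 was at 0.239, 0.176 and 0.263, then 1.48, 2.25 and 2.07, then 0.457, 0.480 and 0.396. Its rise was 1.25 (SE 0.12, adjusted p = 2.36e-05 in the limma fit without a filter). All its 7 dpa libraries lay above all its 0 dpa libraries, while the difference of 0.24 (SE 0.12) had a limma adjusted p of 0.328 in the same fit.

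The members did not all shift the same way among the 4 dpa libraries. Replicates 1 and 2 were alike, with a ratio of replicate 2 to replicate 1 of 0.808 to 1.55 over the 44 members and a median of 1.09. Replicate 3, the library with the highest ribosomal RNA share and the fewest genes above 0, was below both others for 24 members, above both for 17 and between them for 3. Its ratio to the mean of the other pair ran from 0.116 for ccnb2 to 2.37 for cenpe, with a median of 0.911. The lowest ratios after ccnb2 were 0.279 for cenpa, 0.337 for prc1b, 0.352 for ccnb3, 0.407 for spc25 and 0.411 for ndc80. With this library left out of the limma fit without a filter, all 44 members were called higher at 4 than at 0 dpa, ccnb2 and cenpa included, beside 6.12% of all genes in the fit. In the same setting 41 of the 44 were called lower at 7 than at 4 dpa, beside 2.37%, with bub3, kif4 and prc1a missing. Without replicate 1 or replicate 2 at 4 dpa, 39 of the 44 were called higher in each case, beside 4.63% of all genes. The counts for the fall were then 33 and 32, beside 1.26% and 1.23%. The part of ribosomal RNA or depth in these ratios was not tested.

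**Figure D4:**
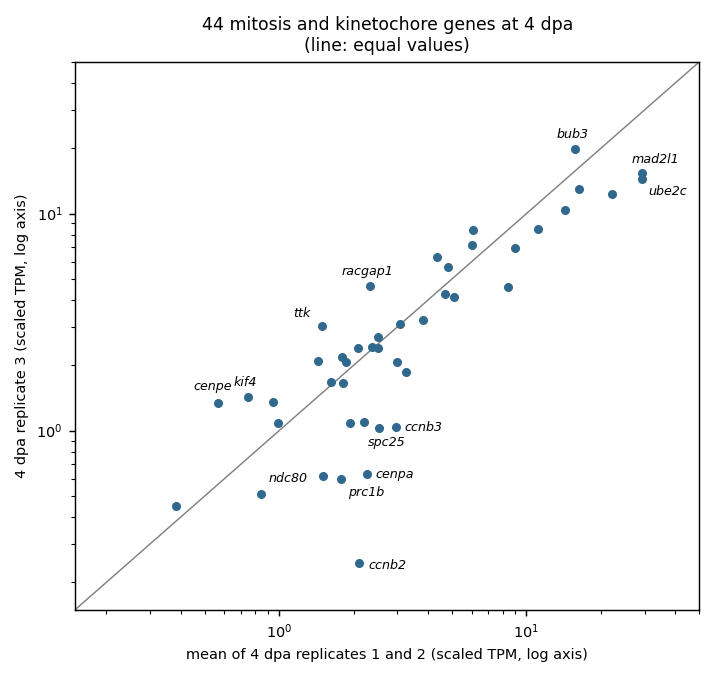
Scaled TPM of the 44 genes in replicate 3 at 4 dpa (y axis) against the mean of replicates 1 and 2 (x axis), both on log axes, with a line of equal values. Points lie on both sides of the line, ccnb2, cenpa, prc1b and ccnb3 farthest below it and cenpe, ttk, racgap1 and kif4 farthest above.

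Other cell cycle genes were counted in the fit without a filter, where 6.26% of all genes were called higher at 4 than at 0 dpa and 2.01% lower at 7 than at 4 dpa. Of 21 further kinetochore and checkpoint genes 13 rose and 8 then fell, with a median log2 difference at 4 dpa of 0.84. Of 20 further spindle and cytokinesis genes 16 rose and 14 fell, with a median of 0.92. The largest log2 difference of the first list among tested genes was that of ska3, a kinetochore microtubule coupler, which was at 0.410, 0.614 and 0.327 scaled TPM at 0 dpa, 3.72, 3.95 and 2.99 at 4 dpa and 0.976, 1.31 and 0.782 at 7 dpa. In the second list it was cdca7a, which in mammals is known as a gene induced in S phase and not as a spindle or cytokinesis gene, at 0.905, 0.919 and 0.865, then 3.39, 4.75 and 7.68, then 3.67, 3.68 and 1.54.

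Of 14 core subunit and cofactor genes of the anaphase promoting complex 1 rose, ube2s, a ubiquitin chain elongating enzyme, with a log2 difference of 0.60 (SE 0.16, limma adjusted p = 0.0192), and the list's median was 0.36. Of 11 cohesin genes 1 rose, the acetyltransferase gene esco2, by 1.07 (SE 0.16, limma adjusted p = 4.56e-04), with a median of 0.02. Of 3 further condensin genes 2 rose, ncaph2 by 0.97 (SE 0.13, limma adjusted p = 1.97e-04). The p-values of named genes are from the filtered fit. All 14 tested genes of the anaphase promoting complex list, ube2s included, also passed the filter in the libraries outside 4 dpa. Of the tested cohesin genes 8 of 9 did, and of the further condensin genes 1 of 3. The genes esco2 and ncaph2 may have passed only with the 4 dpa libraries, and their p-values are read no further. The difference between lists was not tested.

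Regulators upstream were mixed. Of 17 regulators of mitotic entry and their antagonists 6 rose and 1 fell at 4 dpa, where 5.2% of all genes in the fit were called lower. The kinase gene cdk2 rose by a log2 difference of 1.18 (SE 0.20, limma adjusted p = 9.35e-04). The gene ccng2, an atypical cyclin linked in mammals to cell cycle arrest, fell, with a log2 difference of -1.24 (SE 0.33, limma adjusted p = 0.0190), from 134, 95.6 and 87.0 scaled TPM to 61.0, 38.3 and 34.8. Of 17 genes of the MuvB, Myb, E2f and pocket protein families 5 rose and 1 fell. The repressor gene e2f8 rose from 0.0527, 0.290 and 0.278 to 1.37, 1.55 and 2.25, a difference of 1.17 (SE 0.17, limma adjusted p = 3.56e-04). Of the 15 tested genes of this list, 13 also passed the filter within the libraries outside 4 dpa. The gene e2f8, low at 0 dpa, may have passed only with the 4 dpa libraries, and its p-value is read no further. The gene mybl2a fell by 0.46 (SE 0.14, limma adjusted p = 0.0334), from 2.04, 1.55 and 1.55 to 0.988, 0.918 and 0.987.

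Replication licensing and S phase genes rose at 4 dpa with the mitotic genes, 27 of 31 at a median of 1.29, and 19 fell at 7 dpa in the fit without a filter. The ribonucleotide reductase gene rrm2 had the largest tested log2 difference of this list, from 3.17, 2.18 and 2.64 scaled TPM at 0 dpa to 17.6, 18.8 and 16.4 at 4 dpa, with 3.42, 3.39 and 3.99 at 7 dpa. At 7 dpa 2 of the 31 S phase genes were called above 0 dpa and 0 below it in the fit without a filter. Of the 44 mitotic members 0 were called. That fit called 3.03% of all genes in either direction. In the filtered fit the S phase count was 3 of 29 tested genes, the helicase subunit genes mcm2, mcm5 and mcm6, beside 2.53% of tested genes called higher. None of the 31 tested mitotic members was called in the filtered fit. Counts this small are not read as a contrast between the lists, which was not tested. The gene mcm2 was at 1.82, 2.47 and 2.36 at 0 dpa, 9.25, 10.7 and 14.5 at 4 dpa and 6.70, 8.09 and 4.32 at 7 dpa, a difference from 0 dpa of 1.17 (SE 0.20, limma adjusted p = 0.00560).

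**Figure D5:**
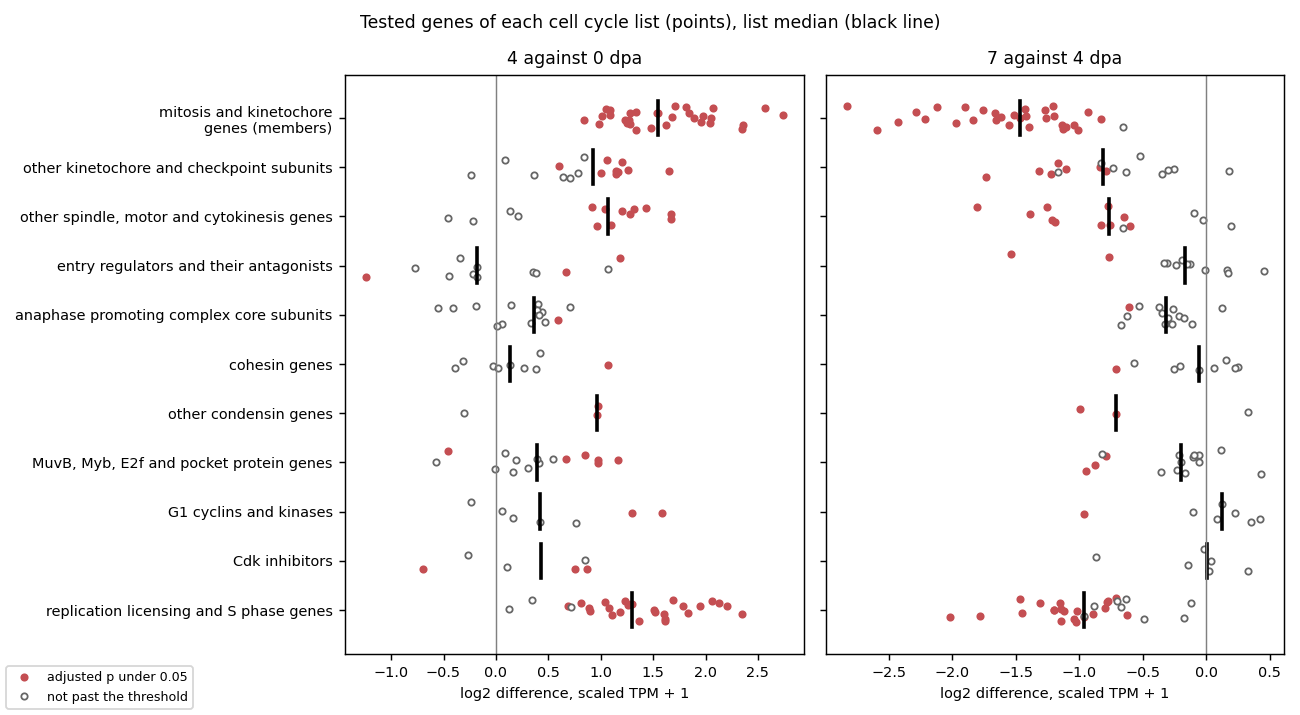
Log2 difference of scaled TPM + 1 (x axis) at 4 against 0 dpa and at 7 against 4 dpa for each tested gene (points) of the 11 cell cycle lists (rows), with a black line at each list's median and filled points for limma adjusted p-values under 0.05. At 4 against 0 dpa the median is 1.55 for the mitosis and kinetochore genes, of which 19 of 31 passed the filter only with the 4 dpa libraries, and 1.30 for the S phase genes, and without a filter the medians are 1.28 and 1.29.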

How the data were processed

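The deposited values are TPM, which divide reads by transcript length and set each library's total to 1000000, and per the submitters' processing notes Trim Galore 0.6.7, cutadapt 3.5, Salmon 1.4.0 and the build danRer11 were used, with no role given. Reads shared by paralogs could have been split in ways not stated. RNA was reverse transcribed, amplified by PCR and tagged with Tn5, per the labels' protocols, with no molecular identifiers named.

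TPM was divided by a median-of-ratios factor from 10774 genes above 0 in all 15 libraries. Log2(scaled TPM + 1) was fitted with limma 3.58.1 in R 4.3.3, 1 fit with an intensity trend over the 5 groups of 3, for genes at a TPM of 1 or more in 3 or more libraries, and again for all 14395 genes above 0 in any library. P-values were adjusted by Benjamini-Hochberg over all genes fitted, with a threshold of 0.05. Folds on this scale understate changes of low genes. The fit was tested on simulated data first, with changes planted only in genes of higher level. That test therefore does not cover the members at low levels. P-values measure the spread between pools. The alternatives are given at the end.

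The members, gene lists and marker lists were chosen with earlier results of these data known. Genes given with values by library include, in each role, the tested members with the largest and smallest difference at 4 dpa and members that failed the F test, and in each other list the gene with the largest called difference in each direction at 4 dpa. Values of other members and of mcm2 were added after they were seen. Of the 14836 symbols 14687 were in the RefSeq gene table (assembly GRCz12tu), used for names and gene types only, and no sequence or coordinate is given.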

Additional observations from a re-analysis of the deposited data

How the results depend on the processing

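No tested member changed direction at 4 against 0 dpa or at 7 against 4 dpa under any alternative. For 19 of the 31 the filter fixed or favoured that direction, and for them this is read no further. Of the 31 tested members, of which 19 passed the filter only with the 4 dpa libraries, 29 to 31 were called higher at 4 than at 0 dpa under the other scalings, a pseudocount of 0.1, no trend, the replicate block or only the 2 time points in the fit, and 26 to 30 lower at 7 than at 4 dpa. In the same settings 531 to 2485 and 116 to 360 of all tested genes were called, but in either direction. In the reported fit 806 of 10235 genes were higher at 4 than at 0 dpa and 256 lower at 7 than at 4 dpa. The share in the members' direction was not counted in the other settings. Leaving out each library in turn gave 30 to 31 and 28 to 30 members, and 30 to 31 for the F test. The counts over all tested genes were then 1027 to 1683, 158 to 404 and 2003 to 3197, the first 2 in either direction. The filter fixed or favoured a high 4 dpa level for 19 of the 31, so these member counts are read no further. Without a filter, no member needs the 4 dpa libraries to be counted. Leaving out each library in turn there gave 38 to 44 of the 44 members higher at 4 than at 0 dpa, beside 4.49% to 6.38% of all genes. It gave 32 to 41 lower at 7 than at 4 dpa, beside 1.17% to 2.37%. This alternative was added after seeing the data. With only the 2 time points ccnb3 (adjusted p = 0.118) and bub3 (0.0752) lost the call for the rise, and bub3, birc5a, ttk and racgap1 that for the fall, each with the same log2 difference as reported. At 7 against 4 dpa ncapg, ttk and tpx2 lost the call, not the fall, with a pseudocount of 0.1, at log2 differences of -1.585, -2.128 and -2.219 (adjusted p of 0.151, 0.0776 and 0.0549), and bub3 lost it with the TPM as deposited (-1.164, adjusted p = 0.231) or outside the rRNA gene (-1.039, 0.281). The F test has no value with only the 2 time points. Restricting the filter to libraries outside 4 dpa, an alternative chosen after seeing the data, left 12 members, of which 11 passed the F test, 12 were higher at 4 dpa and 11 lower at 7 dpa. At 21 against 0 dpa 1 member, ccnb1, was called with a pseudocount of 0.1 (adjusted p = 0.0408), and leaving out a library gave 0 to 1, and 0 at 7 against 0, 14 against 0, 14 against 7 and 21 against 14 dpa. The median log2 change of the members at 4 dpa was 1.55 as reported, 1.795 as deposited, 2.33 outside the rRNA gene, 2.53 with a pseudocount of 0.1, 1.28 without a filter, 2.01 with the filter outside 4 dpa, and 1.50 to 1.63 with a library left out.

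Counts over all genes moved more. As deposited, 869 genes changed over time in place of 2734, and 531, 31, 199, 197, 142, 68 and 80 in the 7 comparisons (4, 7, 14 and 21 against 0, 7 against 4, 14 against 7 and 21 against 14 dpa) in place of 1549, 510, 1039, 1392, 372, 354 and 144. Outside the rRNA gene 4 against 0 dpa gave 2485, 14 against 0 dpa 578, 21 against 0 dpa 499, 7 against 4 dpa 224, 14 against 7 dpa 117 and 21 against 14 dpa 81. With only the 2 time points the first 6 comparisons gave 808, 52, 560, 672, 116 and 177. Leaving out a library gave 2003 to 3197 over time, and then 1027 to 1683, 162 to 965, 404 to 1163, 886 to 1583, 158 to 404, 127 to 416 and 67 to 180. The cause was not tested.

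Same-numbered replicates were no more alike than others by the correlation of their deviations from time point means. It was over 0.1 in 12 of 30 same-number pairs of libraries (median -0.02) and in 26 of 60 pairs of different number (median 0.04). Deviations from a mean of 3 libraries depend on each other, so the check cannot exclude pairing. With the replicate number as a block, 2417 genes changed over time and 1424 at 4 against 0 dpa, and the member counts were 30 for the F test, 31 at 4 against 0 dpa and 30 at 7 against 4 dpa.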

Other observations

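Of 8 G1 cyclin and kinase genes 2 rose at 4 dpa in the limma fit without a filter, beside 6.26% of all genes in the fit. The cyclin E gene ccne2, whose product acts at the start of S phase, was at 0.524, 0.580 and 1.03 scaled TPM at 0 dpa, 3.60, 4.44 and 4.27 at 4 dpa and 1.34, 1.98 and 1.53 at 7 dpa. The cyclin D gene ccnd2b, named after its values were seen, was at 0.977, 2.39 and 2.26 at 0 dpa, 5.30, 5.11 and 7.39 at 4 dpa, 8.47, 8.38 and 6.54 at 7 dpa, 7.06, 8.09 and 7.67 at 14 dpa and 6.26, 4.86 and 8.82 at 21 dpa. Every later library of ccnd2b lay above every 0 dpa library, and its log2 difference from 0 dpa at 21 dpa was 1.42 (SE 0.23, limma adjusted p = 0.00124).

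Of 6 Cdk inhibitor genes 2 rose and 1 fell at 4 dpa in the limma fit without a filter. That fit called 6.26% of all genes higher and 5.2% lower, and so small a count is read no further. The p21 gene cdkn1a was at 4.92, 3.46 and 3.78 at 0 dpa, 9.53, 10.4 and 5.34 at 4 dpa, 9.00, 7.89 and 8.24 at 7 dpa, 4.25, 2.33 and 1.90 at 14 dpa and 0.881, 1.09 and 1.81 at 21 dpa. Its difference from 0 dpa was 0.86 at 4 dpa (SE 0.25, limma adjusted p = 0.0322) and -1.17 at 21 dpa (SE 0.25, limma adjusted p = 0.00751). The p27 gene cdkn1bb was at 18.0, 13.4 and 13.1 at 0 dpa and 9.22, 8.99 and 7.91 at 4 dpa, and fell, with a log2 difference of -0.70 (SE 0.15, limma adjusted p = 0.00688).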
